A study of Mus musculus with 20 samples.

Results

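The class I presentation set comprised 10 genes, matched by gene symbol among the 46983 genes of the count table: H2-K1 and H2-D1, which encode classical MHC class I heavy chains, B2m, Tap1, Tap2, Tapbp, the immunoproteasome genes Psmb8, Psmb9 and Psmb10, and Nlrc5. All 10 were found and all 10 passed the filter on low counts in every comparison, the lowest count of any of them in a library being 2034, for Nlrc5. They were measured in 20 RNA-seq libraries from orthotopic tumours of KPC cells, a cultured mouse pancreatic cancer line, grown for 2 weeks in untreated C57BL/6 hosts. The 4 groups had 5 libraries each: CD45+ leukocytes from IL33-/- hosts (IL33KO sorted), CD45+ leukocytes from wild-type hosts (WT sorted), bulk tumour from IL33-/- hosts (IL33KO bulk) and bulk tumour from wild-type hosts (WT bulk). The injected tumour cells were the same kind in both hosts, so the host genotype applies to the stroma and leukocytes and not to the tumour cells. The labels give no ages, name 5 mice per genotype without tying a library to a mouse, and do not say whether sorted and bulk libraries came from the same tumours. The p-values below therefore measure the spread between libraries, part of which may be technical.

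Class I molecules display peptides of cytosolic proteins to CD8+ T cells. The proteasome cuts the proteins, the TAP transporter carries the peptides into the endoplasmic reticulum, tapasin holds the empty heavy chain and its light chain beta-2-microglobulin beside TAP, and the loaded complex travels to the cell surface. Most nucleated cells carry this pathway, and leukocytes carry it at a high level. Interferon gamma raises its genes together and exchanges the catalytic subunits of the proteasome for inducible ones. NLRC5 is the transactivator of class I genes: it acts at promoters with an S-X-Y module, bound by the RFX complex at the X1 box, CREB/ATF factors at the X2 box and NF-Y at the Y box, a reversed CCAAT.

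Promoter sequences of 8 of the 10 genes were found in the RefSeq table of the GRCm38.p6 build, which holds 250 bases before and 50 after each start site. Those of H2-K1, H2-D1, B2m, Tap1 and Psmb8 are printed 5′ to 3′ on the strand of the gene. They show which exact matches the members share and which they do not. Capitals mark matches, on either strand, to TGACG (the core of the X2 box), CCAAT, GGGA and CCC with 3 bases between them (an NF-kB site), GAAA and GAAA with 2 bases between them (an interferon-stimulated response element, ISRE) and TTC and GAA with 3 bases between them (a gamma-activated site, GAS).
H2-K1, chr17:34000298-34000597, minus strand: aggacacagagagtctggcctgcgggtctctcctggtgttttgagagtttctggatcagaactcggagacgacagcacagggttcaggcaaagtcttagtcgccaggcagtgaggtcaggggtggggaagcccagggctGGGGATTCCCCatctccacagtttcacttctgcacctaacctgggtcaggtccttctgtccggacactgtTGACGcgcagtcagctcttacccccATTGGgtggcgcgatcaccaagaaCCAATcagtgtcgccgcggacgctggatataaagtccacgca
H2-D1, chr17:35262844-35263143, plus strand: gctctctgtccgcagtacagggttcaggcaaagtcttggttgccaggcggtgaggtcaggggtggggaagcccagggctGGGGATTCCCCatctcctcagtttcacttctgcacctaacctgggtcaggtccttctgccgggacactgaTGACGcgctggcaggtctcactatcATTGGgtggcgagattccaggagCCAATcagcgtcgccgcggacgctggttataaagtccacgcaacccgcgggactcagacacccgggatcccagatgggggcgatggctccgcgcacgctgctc
B2m, chr2:122147437-122147736, plus strand: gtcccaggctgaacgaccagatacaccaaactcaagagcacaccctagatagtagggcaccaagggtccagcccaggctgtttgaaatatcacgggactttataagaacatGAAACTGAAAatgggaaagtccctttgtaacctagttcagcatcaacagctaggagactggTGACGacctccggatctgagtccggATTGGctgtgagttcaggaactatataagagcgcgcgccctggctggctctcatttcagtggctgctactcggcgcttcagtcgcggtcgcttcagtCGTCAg
Tap1, chr17:34187306-34187605, plus strand: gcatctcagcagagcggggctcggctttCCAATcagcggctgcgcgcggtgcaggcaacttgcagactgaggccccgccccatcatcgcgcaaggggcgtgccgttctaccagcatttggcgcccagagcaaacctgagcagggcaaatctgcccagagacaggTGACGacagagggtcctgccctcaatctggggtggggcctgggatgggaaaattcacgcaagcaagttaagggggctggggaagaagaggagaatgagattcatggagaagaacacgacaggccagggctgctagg
Psmb8, chr17:34197945-34198244, plus strand: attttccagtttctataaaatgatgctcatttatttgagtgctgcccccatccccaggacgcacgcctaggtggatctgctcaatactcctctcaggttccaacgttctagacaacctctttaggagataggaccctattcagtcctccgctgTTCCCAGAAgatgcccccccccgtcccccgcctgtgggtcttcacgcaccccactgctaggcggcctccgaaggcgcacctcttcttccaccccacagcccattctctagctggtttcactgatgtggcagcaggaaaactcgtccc

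In H2-K1, H2-D1 and B2m, a TGACG was followed by ATTGG, the reversed CCAAT, with exactly 20 bases between them. This arrangement, which was looked for after the sequences had been seen, stood in 31 of 32851 mouse promoter windows (0.0944%), and of the 32 other class I pathway genes with a window, H2-M3 alone had it. H2-K1 and H2-D1 also had a pair of overlapping NF-kB matches at the same distance ahead of their TGACG, and an NF-kB match stood in 5.55% of all windows. The exact ISRE pattern was found in B2m only (3.44% of all windows) and the exact GAS pattern in Psmb8 only (8.30% of all windows). CCAAT was found in 6 of the 8 promoters, against 37.4% of all windows, and TGACG in 5 of the 8, against 20.8%. Tap1 and Psmb9 are transcribed head to head from start sites 226 bases apart, so their windows share 275 bases and the Psmb9 sequence is not repeated. The CCAAT and the TGACG of Tap1 and of Psmb9 lie in these shared bases and are the same sites, counted for both genes. The counts of 6 and 5 are therefore not counts of separate sites. The Psmb10 window had no match to any of these 5 motifs. A match describes letters in this window and is not evidence that a factor binds there. Looser forms of the motifs were not searched for, so the lack of a match does not show that a site is absent.

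Gene counts summed to between 51.3 and 81.0 M per library, with a median of 59.5 M. Counts do not check the genotype: Il33, the targeted gene, had 17.4 ± 4.61 CPM (counts as a share of the TMM-scaled library total) in IL33KO sorted and 12.8 ± 5.56 CPM in WT sorted libraries, and 46.5 ± 6.84 CPM in IL33KO bulk and 57.9 ± 5.16 CPM in WT bulk libraries (SD, n = 5 each; adjusted p = 0.524 and 0.724), and what part of the gene the allele removes is not given in the sources used here. IL33KO therefore stands throughout for the libraries labelled so. Some libraries stood apart. The summed level of 8 pancreatic acinar markers was 41592 CPM in IL33KO sorted 3. It was 699 to 7059 CPM in the other IL33KO sorted and 641 to 4494 CPM in WT sorted libraries. In bulk tumour it was 8529 CPM in WT bulk 5, against 7.62 to 15.0 CPM in the other WT libraries. It was 1576 CPM in IL33KO bulk 3, against 3.58 to 153 CPM in the other IL33KO libraries. The CD45+ label held for the sorted libraries: the summed level of 10 pan-leukocyte markers was 8717 to 11072 CPM in IL33KO sorted and 8511 to 11719 CPM in WT sorted libraries, against 781 to 1578 CPM in IL33KO bulk and 671 to 1535 CPM in WT bulk libraries. Epithelial keratin and junction markers of the tumour cells were still present there, at 1529 to 2332 CPM in IL33KO sorted and 884 to 2200 CPM in WT sorted libraries, against 5184 to 7609 CPM in IL33KO bulk and 6117 to 7901 CPM in WT bulk libraries. In bulk tissue, fewer cells of a type and less RNA per cell cannot be told apart.

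Per kilobase of exon the class I genes spanned more than 2 orders of magnitude, and their order was nearly the same in all 4 groups. B2m, the light chain of every class I molecule, was highest in each group, with 4671 ± 595 CPM per kb in IL33KO sorted, 5182 ± 848 in WT sorted, 3157 ± 495 in IL33KO bulk and 3217 ± 244 in WT bulk libraries (SD, n = 5). The heavy chains followed, H2-D1 with 1253 ± 156 and H2-K1 with 1025 ± 154 CPM per kb in IL33KO sorted libraries, and their ranges overlapped each other in every group. Tapbp, which encodes tapasin, came next, with 171.8 ± 19.4 CPM per kb in IL33KO sorted and 220.5 ± 35.8 in WT sorted libraries. Psmb8 and Psmb10 stood just under it, at 138.0 ± 12.6 and 131.5 ± 11.1 CPM per kb in IL33KO sorted libraries, and overlapped each other in each group. Tap1, Tap2 and Psmb9 lay between 61.25 and 78.81 CPM per kb on average in IL33KO sorted libraries. In bulk libraries of both hosts Tap1, Psmb9 and Tap2 each overlapped the gene just above in the order, Psmb9 stood above Tap2, and Tap2 did not overlap Nlrc5 below it. Nlrc5 was lowest everywhere, with 10.16 ± 3.15 CPM per kb in IL33KO sorted, 8.884 ± 1.01 in WT sorted, 9.175 ± 2.02 in IL33KO bulk and 8.348 ± 1.43 in WT bulk libraries.

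**Figure D1:**
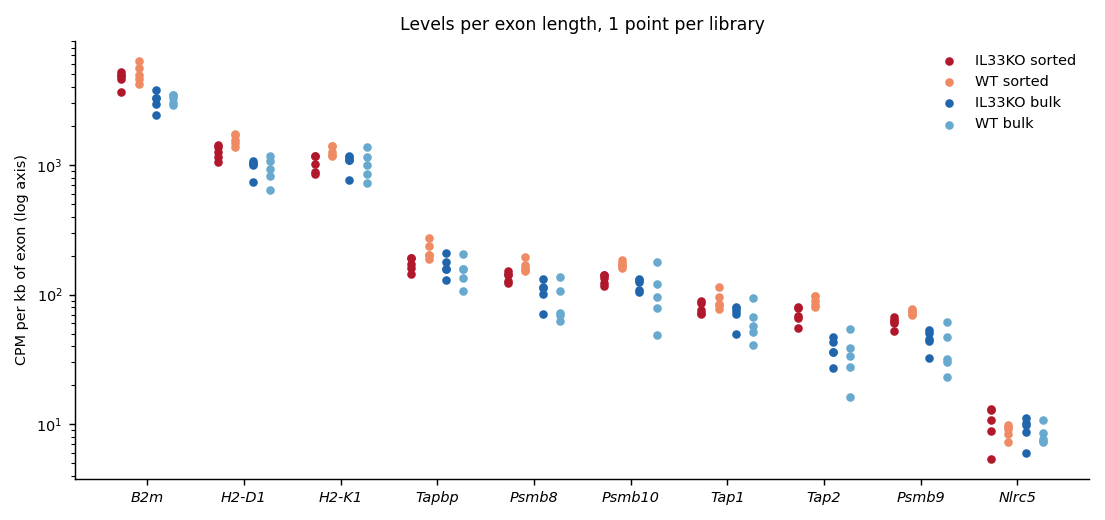
CPM per kb of exon (log axis) of the 10 class I genes, 1 point per library, with groups side by side in the order of the legend. B2m is highest and Nlrc5 lowest in every group, and the ranges of H2-D1 and H2-K1 overlap within each group.

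The first comparison asked whether leukocytes from tumours of IL33KO hosts carry these genes at another level than leukocytes from WT hosts. In 9 of the 10 genes the fitted level was lower in IL33KO sorted libraries, by 0.13 to 0.37 on the log2 scale, and Nlrc5 alone was higher. None of the 10 passed the threshold of 0.05 for the adjusted p (edgeR quasi-likelihood test, Benjamini-Hochberg over 16731 genes), where 0.00598% of all genes were called higher and 0.00598% lower. Without adjustment 7 of the 10 had a p under 0.05, against 12.9% of all genes. The median log2 fold change of the 10 was −0.28, beside 0.02 for all genes tested, of which 46.3% were negative.

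The heavy chains were the most abundant of the lower genes. H2-K1 (chr17:33996017-34000347, GRCm38, minus strand) had 2606, 3011, 2515, 3468 and 3461 CPM in IL33KO sorted libraries, against 3725, 3460, 4098, 3526 and 4151 CPM in WT sorted libraries. All 5 IL33KO values lay below the WT median, and the highest IL33KO value was just above the lowest WT one. The fitted log2 fold change was −0.32 (SE 0.11, adjusted p = 0.287), with a 95% interval of −0.537 to −0.0995. H2-D1 (chr17:35262730-35267499, plus strand) had 2731, 3246, 2950, 3710 and 3525 CPM in IL33KO sorted libraries and 4005, 3789, 4401, 3574 and 4477 CPM in WT sorted libraries. It had nearly the same log2 fold change as H2-K1, −0.31 (SE 0.11, adjusted p = 0.273). B2m (chr2:122147686-122153083, plus strand) had 3169, 4276, 4157, 4507 and 3977 CPM in IL33KO sorted libraries and 4288, 3984, 5493, 3657 and 4860 CPM in WT sorted libraries, a log2 fold change of −0.13 (SE 0.13, adjusted p = 0.701). Its groups overlapped, with 4 of the 5 IL33KO values above the lowest WT value. H2-K1 and H2-D1 have near-identical class I copies, and B2m lies within the span of Patl2 on the other strand, so that their counts carry an uncertainty that the files do not resolve.

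The transporter genes differed in spread. Tap2 (chr17:34203527-34216321, plus strand), encoding one chain of the TAP heterodimer, had 248, 258, 209.9, 300.02 and 300.7 CPM in IL33KO sorted libraries, against 337, 302, 372, 312 and 371 CPM in WT sorted libraries. The groups did not overlap, although the highest IL33KO and the lowest WT values nearly touched. Its log2 fold change was −0.35 (SE 0.11, adjusted p = 0.246). Tap1 (chr17:34187553-34197225, plus strand), encoding the other chain, had 387, 418, 394, 489.9 and 469.5 CPM in IL33KO sorted libraries and 466, 422, 629, 455.5 and 528 CPM in WT sorted libraries, with a log2 fold change of −0.20 (SE 0.11, adjusted p = 0.497). Its groups overlapped, and WT sorted 3 was the highest library. Tapbp (chr17:33915899-33929292, plus strand) averaged 623.4 ± 70.2 CPM in IL33KO sorted and 800.1 ± 130 CPM in WT sorted libraries, a log2 fold change of −0.34 (SE 0.12, adjusted p = 0.277).

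The 3 immunoproteasome genes had the smallest errors of the set. Psmb10 (chr8:105935735-105938444, minus strand), the inducible trypsin-like subunit, had 209, 230.3, 199, 239.8 and 242 CPM in IL33KO sorted libraries, against 273, 281, 317, 300.1 and 286 CPM in WT sorted libraries. Every IL33KO value lay below every WT value, with a clear gap between the groups. The log2 fold change of −0.37 (SE 0.08) had the lowest adjusted p of the set, 0.149. Psmb9 (chr17:34181987-34187764, minus strand), the inducible counterpart of the caspase-like subunit, had 221, 228, 191, 247 and 234 CPM in IL33KO sorted and 253, 275, 276, 281 and 258 CPM in WT sorted libraries. These groups did not overlap either (log2 fold change −0.25, SE 0.08, adjusted p = 0.241). Psmb8 (chr17:34197721-34201454, plus strand), the inducible chymotrypsin-like subunit, averaged 466.4 ± 42.5 CPM in IL33KO sorted and 562.7 ± 58.5 CPM in WT sorted libraries (log2 fold change −0.26, SE 0.09, adjusted p = 0.284), with ranges that met between 514 and 517 CPM. Groups thus stood apart for 3 of the 10 genes, all lower in IL33KO, where 2.72% of all genes tested stood apart in that direction and 0.98% in the other.

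Nlrc5 (chr8:94434356-94527272, plus strand), the transactivator, was the exception in direction. It had 91.4, 75.3, 45.9, 110.3 and 109 CPM in IL33KO sorted libraries and 83.6, 78.3, 62.3, 71.9 and 81.0 CPM in WT sorted libraries. Both the highest and the lowest of the 10 libraries were from IL33KO hosts, and the log2 fold change was 0.20 (SE 0.21, adjusted p = 0.727). Without IL33KO sorted 3, the library with the acinar markers, it was 0.36 (adjusted p = 0.332), while the 9 lower genes stayed lower, from −0.15 to −0.33.

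**Figure D2:**
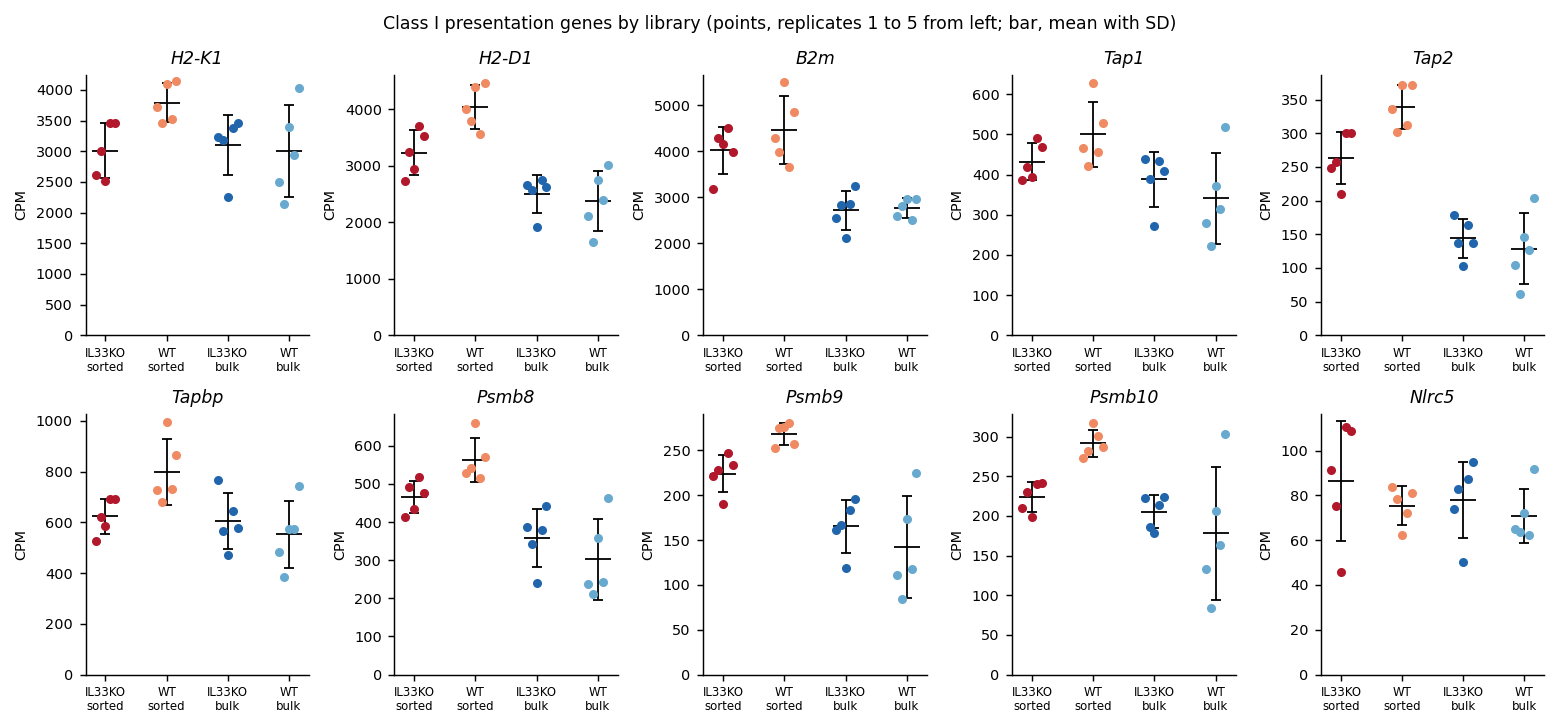
CPM of each class I gene in the 20 libraries, with replicates 1 to 5 from left to right within a group and the mean with its SD. IL33KO sorted lies wholly below WT sorted for Tap2, Psmb9 and Psmb10, and the WT bulk libraries spread widest for most genes.

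The call in sorted leukocytes depended on the test. DESeq2 called Tap2 (adjusted p = 0.0451), Psmb9 (0.0235) and Psmb10 (0.000144) lower in IL33KO sorted libraries, and limma voom with quality weights called Psmb10 (log2 fold change −0.32, adjusted p = 0.038). Macrophage markers moved with these genes: the summed level of 6 of them (Csf1r, Adgre1, Cd68, C1qa, C1qb and C1qc) was 5599 to 9158 CPM in IL33KO sorted libraries and 9520 to 11796 CPM in WT sorted libraries, without overlap, and all 6 had a negative log2 fold change, none of them called. Singly, C1qa and C1qc stood apart between the groups, and Csf1r, Adgre1, Cd68 and C1qb overlapped. The C1q genes, highest of the 6 on average, weighed most in the sum. The mean log2 CPM of these 6 markers was also fitted as a covariate, an alternative chosen after seeing the data. The log2 fold change was then 0.18 for B2m, 0.03 for Tap1, −0.12 for H2-K1 and −0.28 for Psmb10. Adjusted p ran from 0.676 to 0.961 over the 10 genes (edgeR). Marker levels went with the host, so this fit cannot tell marker level and host apart. Of all genes, 1202 had an unadjusted p under 0.05 by edgeR with the covariate, against 2156 without it. The summed levels of 10 pan-leukocyte, 4 B cell, 4 T cell and 4 neutrophil markers overlapped between the groups, although IL33KO sorted 3 had the highest neutrophil level (15173 CPM), as did the share of reads without a unique position, 16.5 to 22.5% in IL33KO sorted and 15.1 to 18.9% in WT sorted libraries.

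In bulk tumour the fitted differences leaned the other way and were smaller than their errors. None of the 10 genes was called, and neither was any other of the 17258 genes (0.0% of genes tested in either direction) by edgeR, 1098 genes having an unadjusted p under 0.05, none of them among the 10. DESeq2 called 50 genes and limma voom with quality weights 3371. In 9 of the 10 genes the log2 fold change was positive, with a median of 0.13 over the 10 and 0.01 over all genes tested. H2-K1 had 3229, 3186, 2258, 3384 and 3459 CPM in IL33KO bulk libraries, against 2496, 2141, 3401, 2946 and 4033 CPM in WT bulk libraries. WT bulk 5 was the highest and WT bulk 2 the lowest of the 10, and the log2 fold change was 0.02 (SE 0.17, adjusted p = 0.968). H2-D1 followed the same order of WT libraries, with 2507 ± 336 CPM in IL33KO bulk and 2381 ± 537 CPM in WT bulk libraries (log2 fold change 0.05, SE 0.16). B2m was even across the groups, with 2537, 2839, 2103, 2846 and 3250 CPM in IL33KO bulk and 2597, 2808, 2958, 2504 and 2967 CPM in WT bulk libraries (log2 fold change −0.05, SE 0.11, adjusted p = 0.882).

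Psmb10, Tap2 and Psmb9 had the widest spread relative to their means in WT bulk tumour. Psmb10 had 223, 186, 179, 214 and 224 CPM in IL33KO bulk libraries, against 133, 83.5, 206, 163 and 304 CPM in WT bulk libraries. The WT values ran from the lowest to the highest of the 10, and the coefficient of variation was 10.3% in IL33KO bulk and 46.8% in WT bulk libraries. The log2 fold change was 0.18 (SE 0.27, adjusted p = 0.823). Psmb9 had 162, 167, 118, 184 and 196 CPM in IL33KO bulk and 111, 84.3, 174, 117 and 225 CPM in WT bulk libraries (log2 fold change 0.19, SE 0.24, adjusted p = 0.795). Tap2 had a coefficient of variation of 20.2% in IL33KO bulk and 41.0% in WT bulk libraries. No test of this difference in spread was made. The largest log2 fold change of the set was that of Psmb8, with 358.4 ± 75.5 CPM in IL33KO bulk and 302.8 ± 106 CPM in WT bulk libraries (0.22, SE 0.23, adjusted p = 0.766).

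The bulk values rested on a few libraries, some of which also differed in leukocyte and acinar marker levels. WT bulk 5, highest for each of the 10 genes among the WT libraries, had the highest summed pan-leukocyte level of its group (1535 CPM). WT bulk 2 was lowest in its group for 8 of the 10. Its pan-leukocyte level (671 CPM) was close to those of WT bulk 1 (682 CPM) and WT bulk 4 (680 CPM). IL33KO bulk 3, lowest in its group for all 10 genes, was also lowest in its group for the pan-leukocyte markers (781 CPM). IL33KO bulk 3 and WT bulk 5 also had the highest acinar marker levels of their groups (1576 and 8529 CPM). Without WT bulk 5 the log2 fold change was 0.43 for Psmb8 (adjusted p = 0.184) and 0.47 for Psmb10 (0.191); without WT bulk 2 it was 0.12 for Psmb8 (0.953) and 0.01 for Psmb10 (0.997). With the mean log2 CPM of the pan-leukocyte markers as a covariate the 10 genes lay between −0.13 and 0.07. The test with quality weights, which lets single libraries count for less, called Tap1 (log2 fold change 0.41, adjusted p = 0.0374), Psmb8 (0.50, 0.0264) and Psmb9 (0.52, 0.0286) higher in IL33KO bulk.

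Sorted leukocytes were set against bulk tumour in each host. In IL33KO hosts 4 of the 10 genes were higher in sorted than in bulk libraries and none was lower, where 31.3% of all 18145 genes tested were called higher and 31.7% lower, so that 4 of 10 is near the background. In WT hosts 8 of the 10 were higher and none lower, where 33.7% of all genes were called higher and 34.3% lower. All 10 pan-leukocyte markers rose in both hosts: their median log2 fold change was 3.14 in IL33KO hosts and 3.48 in WT hosts, and the largest of any of the 10 class I genes above was 1.41. Sorted and bulk libraries did not overlap for 1 of the 10 genes in IL33KO hosts, where 23.7% of all genes stood apart with higher and 25.0% with lower values, and for 5 of the 10 in WT hosts (H2-D1, B2m, Tap2, Psmb8 and Psmb9), where 26.1% stood apart with higher and 24.3% with lower values.

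Tap2 rose most of the set in both hosts. It had 248, 258, 209.9, 300.02 and 300.7 CPM in IL33KO sorted libraries against 179, 137, 103, 164 and 136 CPM in IL33KO bulk libraries, a log2 fold change of 0.90 (SE 0.22, adjusted p = 0.00161). In WT hosts it had 337, 302, 372, 312 and 371 CPM in sorted and 104, 61.5, 146, 126 and 204 CPM in bulk libraries, a log2 fold change of 1.41 (SE 0.22, adjusted p = 1.62e-05). Sorted and bulk libraries did not overlap in either host. B2m rose as well in both, by 0.59 in IL33KO hosts (SE 0.12, adjusted p = 0.000409) and 0.70 in WT hosts (SE 0.12, adjusted p = 6.14e-05). Of the heavy chains, H2-D1 rose by 0.39 in IL33KO hosts (SE 0.14, adjusted p = 0.0204) and 0.78 in WT hosts (SE 0.14, adjusted p = 7.45e-05), and H2-K1 had log2 fold changes of −0.02 (SE 0.15, adjusted p = 0.924) and 0.35 (SE 0.15, adjusted p = 0.0502). The difference between the heavy chains was not tested. H2-K1 averaged 3012 ± 453 CPM in IL33KO sorted and 3103 ± 485 CPM in IL33KO bulk libraries.

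Of the other genes, Psmb9 was called in both hosts, with log2 fold changes of 0.47 in IL33KO hosts (SE 0.20, adjusted p = 0.0444) and 0.93 in WT hosts (SE 0.20, adjusted p = 0.00036). The call of H2-D1 in IL33KO hosts was lost without IL33KO bulk 3 (adjusted p = 0.0623), IL33KO sorted 4 (0.0563) or IL33KO sorted 5 (0.0547), and that of Psmb9 without any of 11 of the 20 libraries, with an adjusted p of up to 0.116. Psmb8, Psmb10, Tap1 and Tapbp rose in WT hosts by 0.90, 0.72, 0.56 and 0.55, with adjusted p from 0.000297 to 0.0107. In IL33KO hosts their log2 fold changes were 0.41, 0.15, 0.18 and 0.07, and none was called. Nlrc5 was not called in either host, at 0.17 (SE 0.20) in IL33KO hosts and 0.10 (SE 0.20) in WT hosts. H2-K1 in WT hosts was past the threshold without WT bulk 5 (log2 fold change 0.48, adjusted p = 0.00612).

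**Figure D3:**
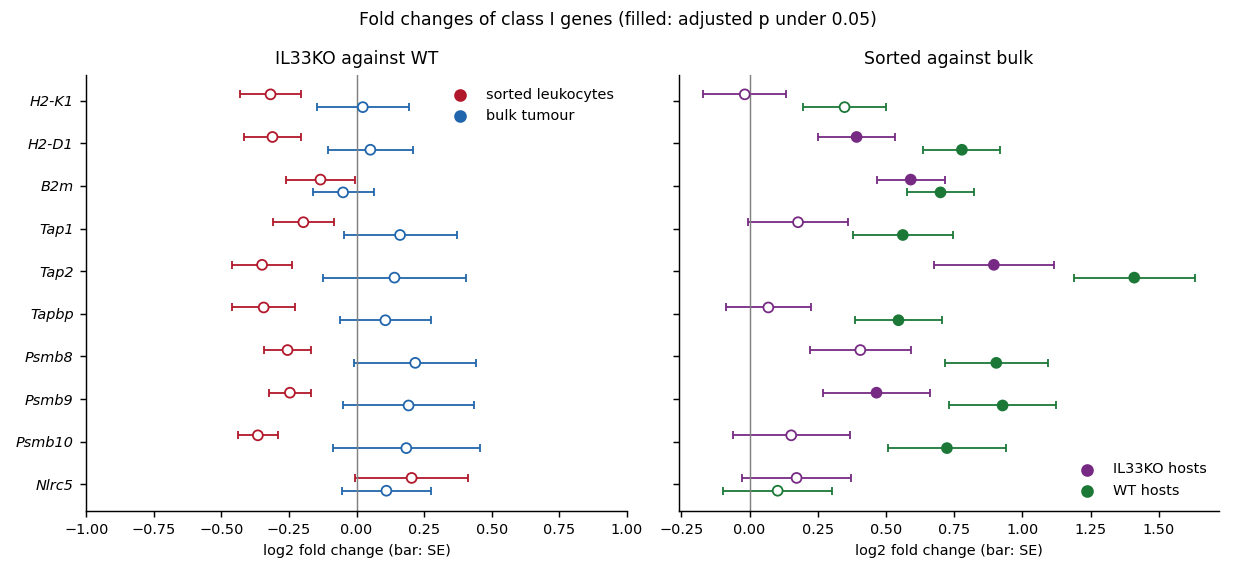
Log2 fold changes with their SE for IL33KO against WT (left, in sorted leukocytes and in bulk tumour) and for sorted against bulk (right, in IL33KO and in WT hosts). Filled points have an adjusted p under 0.05: none on the left, 4 of 10 in IL33KO hosts and 8 of 10 in WT hosts on the right.

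Whether the genotype difference itself differed between leukocytes and whole tumour was tested as an interaction. None of the 10 genes passed (0.0% of the 18145 genes tested passed in either direction by edgeR, with 2028 at an unadjusted p under 0.05). DESeq2 called 4 genes, none of them among the 10, and the quality-weighted voom fit 3406. The difference of the log2 fold changes, sorted minus bulk, was negative in 9 of the 10, from −0.11 for B2m to −0.57 for Psmb10 (SE 0.30, adjusted p = 0.462), and 0.07 for Nlrc5. Tapbp had the lowest adjusted p, 0.445, with −0.48 (SE 0.22). With quality weights 8 of the 10, all but B2m and Nlrc5, were called lower. The larger fold changes between sorted and bulk in WT hosts were therefore not shown by edgeR to differ from those in IL33KO hosts.

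The exchange of proteasome subunits was read as the ratio of each inducible gene to its constitutive counterpart within a library, which does not depend on library scaling. Psmb10 over Psmb7, the trypsin-like pair, had log2 ratios per kb of exon of 1.94, 1.85, 1.56, 1.90 and 1.99 in IL33KO sorted libraries and 2.08, 2.16, 2.06, 2.26 and 2.08 in WT sorted libraries. The groups did not overlap, and the mean difference was −0.28 (exact permutation test, two-sided, p = 0.00794, the smallest that 5 against 5 can give; adjusted p = 0.0476 over 12 tests). The log2 fold change of Psmb10 itself was −0.37 (SE 0.08) and that of Psmb7 −0.09 (SE 0.08). Without IL33KO sorted 3, the lowest library, the mean difference was −0.21 (adjusted p = 0.0476), and leaving out any 1 of the 5 WT sorted libraries took the adjusted p past 0.05, to at most 0.143, with mean differences of −0.25 to −0.30. The groups stayed apart whichever library was left out. The call thus depended on which libraries were kept, and the reason for the rise was not tested.

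The ratios of the other inducible genes, Psmb8 and Psmb9, had no adjusted p under 0.05 between hosts. Psmb8 over Psmb5 averaged 0.09 ± 0.09 in IL33KO sorted and 0.10 ± 0.14 in WT sorted libraries, and the log2 fold change of Psmb5 was −0.25 (SE 0.07, adjusted p = 0.222), close to that of Psmb8. Psmb9 over Psmb6 averaged −0.67 ± 0.17 in IL33KO sorted and −0.56 ± 0.04 in WT sorted libraries (exact permutation p = 0.167, adjusted p = 0.38). Between sorted and bulk libraries of WT hosts Psmb9 over Psmb6 did differ, with −0.51, −0.58, −0.59, −0.53 and −0.58 in sorted against −1.01, −1.09, −0.68, −1.0 and −0.75 in bulk libraries. The sorted values were all higher and close together, and the mean difference was 0.35 (exact permutation p = 0.00794, adjusted p = 0.0476). Leaving out any 1 of the 5 WT sorted libraries took its adjusted p past 0.05, to at most 0.143. Here too the groups stayed apart, and the reason for the rise was not tested. The other 10 tests had an adjusted p of 0.127 or more.

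**Figure D4:**
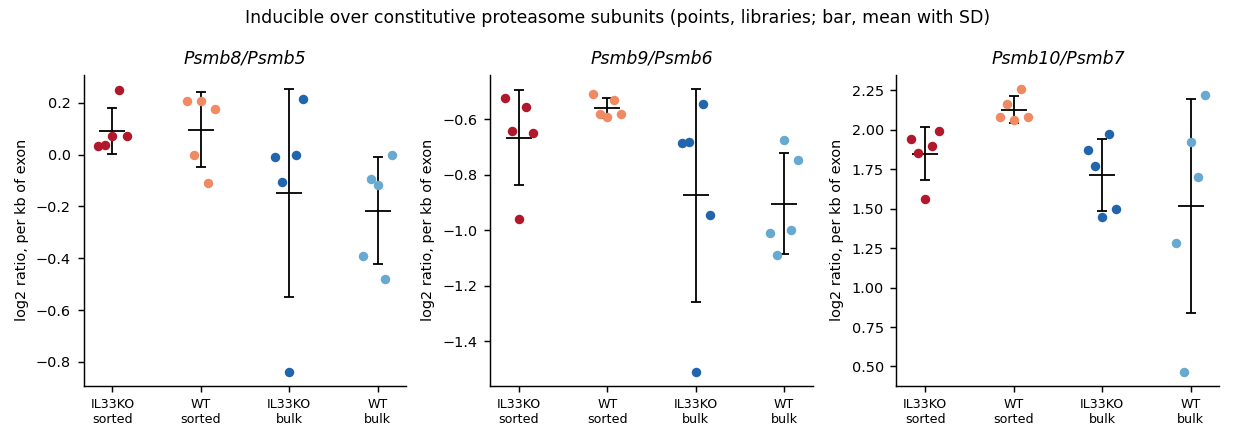
Log2 ratio, per kb of exon, of each inducible proteasome gene to its constitutive counterpart; points are libraries and bars the mean with SD (n = 5). Psmb10 over Psmb7 lies lower in every IL33KO sorted library than in any WT sorted library, and the bulk groups spread widely.

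Other genes of the pathway were counted by list. Of 6 genes of peptide loading and trimming, 11 non-classical class I genes, 7 genes of the constitutive proteasome and its activator, 11 regulators of class I genes and 6 genes of interferon gamma and its receptor, none was called between hosts, in sorted leukocytes or in bulk tumour. In sorted leukocytes all 7 constitutive proteasome and activator genes had negative log2 fold changes (median −0.18, 3 with an unadjusted p under 0.05), among them Psmb5 and Psme2, an activator subunit (−0.25, SE 0.08, adjusted p = 0.259). Psme2 did not overlap, at 339.0 ± 33.8 CPM in IL33KO sorted and 407.7 ± 16.7 CPM in WT sorted libraries. Of the non-classical genes 8 of 11 were negative (median −0.17), including H2-T23, which encodes the Qa-1 heavy chain, with 481.2 ± 69.1 CPM in IL33KO sorted and 598.0 ± 31.6 CPM in WT sorted libraries (−0.30, SE 0.11, adjusted p = 0.292).

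The interferon gamma axis gave small or loosely estimated differences between hosts. Ifng, the cytokine itself, averaged 23.97 ± 12.6 CPM in IL33KO sorted and 31.03 ± 10.7 CPM in WT sorted libraries (log2 fold change −0.36, SE 0.35, adjusted p = 0.711). Socs1, a feedback inhibitor of the receptor's kinases, had −0.48 (SE 0.20, adjusted p = 0.359). The receptor chains were close to level, with Ifngr1 at −0.01 (SE 0.09) and Ifngr2 at −0.14 (SE 0.10), and the kinases Jak1 and Jak2 were at 0.19 (SE 0.14) and 0.09 (SE 0.09). Among the regulators, Irf1, an interferon-induced activator of these promoters, averaged 401.8 ± 96.3 CPM in IL33KO sorted and 497.5 ± 92.3 CPM in WT sorted libraries (−0.30, SE 0.17, adjusted p = 0.507). Ciita, the class II transactivator, averaged 150.0 ± 30.6 and 123.6 ± 17.1 CPM in IL33KO and WT sorted libraries (0.29, SE 0.15, adjusted p = 0.443).

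In bulk tumour all 6 genes of peptide loading and trimming had negative log2 fold changes (median −0.20), none of them called. Calr, encoding calreticulin, which holds heavy chains in the loading complex, averaged 942.0 ± 134 CPM in IL33KO bulk and 1172 ± 143 CPM in WT bulk libraries (−0.34, SE 0.12, adjusted p = 0.724). Its partner Pdia3 had −0.19 (SE 0.11) and the chaperone Canx −0.20 (SE 0.12), and the peptidases Lnpep and Erap1 had −0.60 (SE 0.39) and −0.06 (SE 0.15). Tapbpl, a tapasin relative, had −0.01 (SE 0.12). In sorted leukocytes Lnpep was at 0.42 (SE 0.19, adjusted p = 0.389) and Erap1 at 0.05 (SE 0.17), while Calr, Canx, Pdia3 and Tapbpl lay between −0.12 and −0.04.

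Between sorted and bulk libraries genes of every list were called, and each count is to be read beside the 31.3% of all genes that were called higher in IL33KO hosts and the 33.7% in WT hosts. Non-classical genes rose in 8 of 11 cases in each host, H2-Q10 most: 33.62 ± 8.70 CPM in IL33KO sorted and 2.609 ± 0.922 CPM in IL33KO bulk libraries, a log2 fold change of 3.71 (SE 0.35, adjusted p = 4.09e-08), and 4.26 (SE 0.36, adjusted p = 5.77e-09) in WT hosts. Mr1, which presents vitamin metabolites, and Cd1d1, which presents lipids, rose by 1.77 and 2.40 in IL33KO hosts and by 2.00 and 3.05 in WT hosts. Of the 11, 3 had a negative log2 fold change in IL33KO hosts. H2-Q4, named here after its values were seen, was the 1 non-classical gene called lower, at 266.2 CPM in sorted and 380.1 CPM in bulk libraries of IL33KO hosts (log2 fold change −0.49, SE 0.18, adjusted p = 0.0237). In WT hosts H2-Q4 was at 0.13 (SE 0.18). Of the 7 constitutive proteasome and activator genes, 3 rose in IL33KO hosts, Psme1, Psme2 and Psme3, which is near the 31.3% of all genes, and all 7 rose in WT hosts, against 33.7%. Of 11 regulators, 5 rose in IL33KO hosts (31.3% of all genes) and 8 in WT hosts (33.7% of all genes), led by Irf8, a factor of myeloid and B cells, with 278.0 ± 21.9 CPM in IL33KO sorted and 48.70 ± 10.7 CPM in IL33KO bulk libraries (2.54, SE 0.21). Ifng rose by 2.93 (SE 0.49) in IL33KO hosts and 3.54 (SE 0.50) in WT hosts, while Ifngr2 was at −0.21 (SE 0.11) and −0.19 (SE 0.11) and was not called. Of the 6 genes of interferon gamma and its receptor, 4 rose in IL33KO hosts, against 31.3% of all genes, and 3 in WT hosts, against 33.7%. Of the loading list, 3 genes rose in IL33KO hosts (Lnpep, Erap1 and Calr), against 31.3% of all genes, and 1 in WT hosts (Tapbpl), a smaller share than the 33.7% of all genes.

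**Figure D5:**
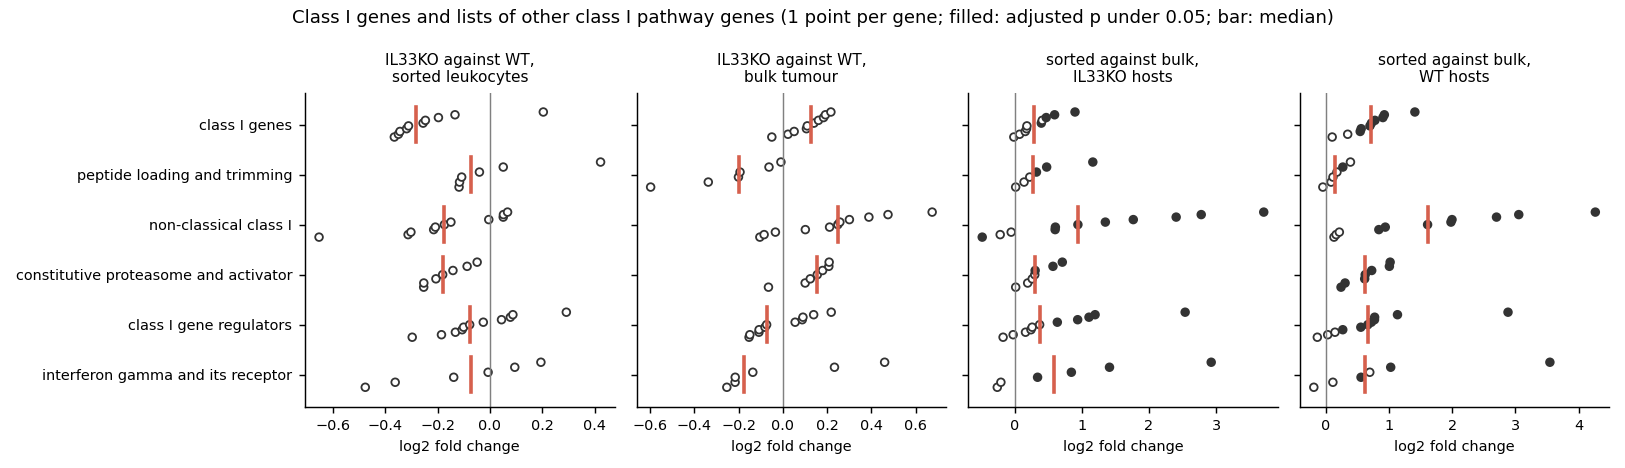
Log2 fold changes of the 10 class I genes and of 5 lists of other class I pathway genes in the 4 comparisons; each point is a gene, filled where the adjusted p is under 0.05, and the bar is the list's median. No point is filled between hosts, and the non-classical genes reach furthest to the right in sorted against bulk.

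Over the libraries of one material, the class I genes were compared with Nlrc5 after each genotype was centred on its mean, in 18 relations. In bulk tumour Pearson's r ran from 0.559 to 0.909, and 7 of the 9 genes had an adjusted p under 0.05 for r (permutation test within genotype, n = 10): B2m, Psmb8, H2-K1, Psmb9, Tap1, H2-D1 and Psmb10. By rank 5 of the 9 passed, since Tap1 (rho 0.733) and Psmb10 (rho 0.709) each had an adjusted permutation p of 0.0617. For B2m r was 0.909 (permutation p = 0.0006, adjusted p = 0.0063) and Spearman's rho 0.915 (permutation p = 0.00033, adjusted p = 0.00594). For H2-K1 r was 0.836 (permutation p = 0.00216, adjusted p = 0.0107) and rho 0.842 (permutation p = 0.00347, adjusted p = 0.0197). Without IL33KO bulk 3 and WT bulk 5, the libraries farthest from the Nlrc5 median, r was 0.877 for B2m (permutation p = 0.004), 0.764 for Psmb8 (0.0329) and 0.737 for Psmb9 (0.0323), and for H2-K1, H2-D1, Tap1 and Psmb10 it was 0.478 to 0.66 with permutation p from 0.0693 to 0.238. These permutations were not kept within genotype. The r of all 9 genes was lower than with 10 libraries, going from 0.604 to 0.333 for Tap2 and from 0.591 to 0.194 for Tapbp. With 8 libraries and a narrower range of Nlrc5 a relation is also harder to detect. Whether the relations rested on those libraries was not tested. Those are the libraries that were lowest and highest for the pan-leukocyte markers in their groups, save that IL33KO bulk 3 was above 3 WT bulk libraries. Both also had the highest acinar marker level of their group. The part of leukocyte or acinar content in these relations was not tested.

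In sorted leukocytes no relation had an adjusted p under 0.05. Tap2 had r = 0.704 (permutation p = 0.0593, adjusted p = 0.119) and rho = 0.6 (permutation p = 0.123, adjusted p = 0.221), H2-K1 r = 0.606 (permutation p = 0.164, adjusted p = 0.246) and rho = 0.539 (permutation p = 0.212, adjusted p = 0.347), and B2m r = −0.162 (permutation p = 0.646, adjusted p = 0.727) and rho = −0.127 (permutation p = 0.744, adjusted p = 0.837). B2m thus had the highest r of the 9 genes in bulk tumour and the lowest in sorted leukocytes, a contrast that was not itself tested. Without IL33KO sorted 3 and WT sorted 3, which lay farthest from the Nlrc5 median, the r of B2m turned positive, at 0.305 (permutation p = 0.453), and r was 0.744 for Tap2 (permutation p = 0.0405, unadjusted) and 0.656 for Tap1 (permutation p = 0.0751). Permutations without these libraries were again not kept within genotype.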

How the data were processed

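Polyadenylated RNA was sequenced after TruSeq Stranded library preparation, per the labels' protocols, and the submitters' processing notes name Picard, HTSeq, DESeq and the mm10 build; no source used here gives the aligner or the strand setting. The authors deposited raw HTSeq counts, used as they stand with 5 summary lines left out (26.1 to 40.5% of a library's reads), and a second table whose signal is scaled between libraries (DESeq is named in the submitters' processing notes), used as an alternative only. Groups came from the sample titles. Counts were fitted with edgeR 4.0.16 (filterByExpr, TMM, robust quasi-likelihood test) in R 4.3.3: 10 libraries for IL33KO against WT in each material, 20 libraries in a 4-group model for sorted against bulk and the interaction. P-values were two-sided, adjusted by Benjamini-Hochberg over all genes tested, threshold 0.05. Gene coordinates and exon lengths came from GENCODE M21. Proteasome ratios used counts plus 0.5 and exact permutation. Nlrc5 relations used log2 CPM (prior count 2) and 100000 permutations within genotype. After the farthest libraries were left out, fewer permutations were used, and all remaining values were shuffled without regard to genotype. Alternatives used DESeq2 1.42.0, limma 3.58.1 (voom with quality weights), RLE factors, no filter, the scaled table, a replicate block, covariates and left-out libraries. Named genes were the 10 members, Il33, each constitutive counterpart of an inducible subunit, up to 4 genes per pathway list by p (all of lists of 6) and the 5 genes most like the members. The members and lists were chosen with earlier results of these data known.

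No replicate pair agreed within sampling noise (lowest chi-square per gene 18.3). Biological variation (edgeR's common coefficient) came to 0.300 for sorted, 0.354 for bulk and 0.346 for all libraries. In data simulated at the real means, the sorted comparison (16731 genes) recovered 6% of the 1.25-fold changes, 40% at 1.5-fold and 82% at 2-fold, and the bulk comparison (17258 genes) 2%, 10% and 66%. Reads without a unique position stand in a summary line and not in genes, so H2-K1, H2-D1 and the non-classical genes, which have near-identical copies, are uncertain. So are overlapping genes: Tap1 and Psmb9 share 212 bases, and B2m, Tapbp, Psmb8, Tap2, Psmb10 and Nlrc5 each overlap another annotated gene.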

Additional observations from a re-analysis of the deposited data

Results flagged for a closer look

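In 52 groups of 5 values (the 10 class I genes and the 3 proteasome ratios in each of the 4 groups), 5 had an end library farther from the rest than Dixon's 95% limit of 0.71 of the range allows; chance gives about 1 in 20. IL33KO bulk 3 was the low one for H2-K1 (2258 CPM, the others 3186 to 3459), H2-D1 (1917 CPM, the others 2577 to 2758) and Tap1 (272 CPM, the others 389.9 to 439.7). IL33KO sorted 3 was low for Psmb9 over Psmb6 (log2 ratio −0.96, the others −0.65 to −0.52). IL33KO sorted 4 was high for Psmb8 over Psmb5 (log2 ratio 0.248, the others 0.03 to 0.07).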

How the results depend on the processing

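The number of genes called between hosts depended on the test. In sorted leukocytes edgeR called 2, DESeq2 566, limma voom with quality weights 400, the deposited scaled signal gave 1, the replicate block 1, and the pan-leukocyte and macrophage covariates 18 and 0; members called were 3 by DESeq2 and 1 by voom. In bulk tumour the counts were 0 by edgeR, 50 by DESeq2 and 3371 by voom (3 members). For the interaction they were 0 by edgeR, 4 by DESeq2, 3406 by voom (8 members), 1 with RLE factors and 1 without both sorted libraries numbered 3. The cause was not tested. Leaving out 1 library gave 1 to 3 genes in sorted leukocytes, 0 to 19 in bulk tumour (19 without WT bulk 5), 0 to 27 for the interaction (27 without WT bulk 5) and 2 to 5 members for sorted against bulk in IL33KO hosts (2 without IL33KO sorted 4, IL33KO sorted 5 or IL33KO bulk 3).

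No called value changed sign; of the values that were not called, these did: in sorted leukocytes B2m 0.181 and Tap1 0.0274 with the macrophage covariate; in bulk tumour H2-K1 −0.000633 without a filter, H2-K1 −0.101, H2-D1 −0.0499 and Nlrc5 −0.0292 with the pan-leukocyte covariate, and B2m 0.0454 by voom; H2-K1 0.0399 for sorted against bulk in IL33KO hosts without both sorted libraries numbered 3; and Nlrc5 −0.0912 for the interaction by voom. Leaving out 1 library gave, in bulk tumour, H2-K1 −0.0744 to 0.157, H2-D1 −0.0539 to 0.155, B2m −0.126 to 0.0127 and Tap2 −0.0349 to 0.376; for sorted against bulk in IL33KO hosts H2-K1 −0.111 to 0.0396 and Tapbp −0.00766 to 0.166; and for the Nlrc5 interaction −0.0498 to 0.228.

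The data did not show that the replicate numbers pair the libraries, which the sources leave unsaid: over 20 pairs r ran from −0.258 to 0.585, and 6 correlated best with their own number. With the replicate block the Psmb10 over Psmb7 difference of −0.279 and the Psmb9 over Psmb6 difference of 0.346 had an adjusted p of 0.188, the smallest raw p of 5 pairs being 0.0625. The block called 5 class I genes higher in sorted than in bulk libraries of IL33KO hosts and 9 in WT hosts. Leaving out 1 library, the ratio differences ran, between hosts, from −0.0551 to 0.0245 (Psmb8 over Psmb5) and −0.316 to −0.208 (Psmb10 over Psmb7) in sorted leukocytes, and from −0.0219 to 0.241 (Psmb8 over Psmb5), −0.051 to 0.189 (Psmb9 over Psmb6) and −0.0663 to 0.372 (Psmb10 over Psmb7) in bulk tumour; for sorted against bulk they ran from 0.0685 to 0.331 (Psmb8 over Psmb5, IL33KO hosts), 0.299 to 0.403 (Psmb9 over Psmb6, WT hosts) and 0.346 to 0.785 (Psmb10 over Psmb7, WT hosts). In all, 1113 of 1180 values of single genes kept direction and side of the threshold. Folds under 1.5 are poorly recovered at this depth and spread.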

Other observations

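Outside the lists, the 5 genes whose levels over the 20 libraries, centred within each group, went most with the mean of the 10 class I genes were Slc11a1, a phagosomal metal transporter of macrophages (Pearson r 0.968), Il12rb1, a chain of the IL-12 receptor (0.959), Tbx21, the T helper 1 factor T-bet (0.911), Zap70, a T cell receptor kinase (0.909), and Fgl2 (0.907), among the 11478 genes averaging 5 CPM or more. Of the class I genes themselves, H2-K1 went most with that mean, of which it is a part (0.985), and Nlrc5 (0.625) and B2m (0.593) least. The median r over the 45 pairs of class I genes was 0.887 in bulk tumour and 0.746 in sorted leukocytes. These correlations share libraries and leukocyte content and are descriptions.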
